A study of Mus musculus with 4 samples.

Results

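H1fx (ENSMUSG00000044927, also named H1f10) encodes a linker histone variant and was 1 gene of the 1593 in the authors' deposited comparison table. It was found by its symbol, and it was picked for description because of its difference between the groups compared here. Its levels are therefore given as a description, with no test. RNA sequencing was done on 46C, an embryonic stem cell line from mouse whose Sox1 gene carries a GFP reporter. PD0325901, which blocks the ERK kinase MEK, was in the serum medium of every culture at 1 µM for 24 h. The PD group (2 libraries) received no other compound, and the PC group (2 libraries) was also given CID755673, which inhibits protein kinase D. For CID755673 no dose is given in the sources used here. Cells without PD0325901 are not analysed here, so both groups carry the MEK inhibitor. Whether replicate libraries represent separate cultures is not stated in the labels, so a p-value covers the spread between these libraries alone, which may be technical.

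Linker histones bind the DNA where it enters and leaves the nucleosome and help fold chromatin into compact fibres. Most somatic linker histones are made during S phase from genes in histone clusters, whose mRNAs end in a stem-loop and carry no poly(A) tail. H1fx belongs to the replication-independent linker histones, whose genes lie alone in the genome and whose mRNAs are polyadenylated. It is among the most divergent somatic members of the family, and the protein is found in chromatin and in the nucleolus.

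In GENCODE M21 (GRCm38), H1fx is a protein-coding gene of 1 exon on the minus strand of chromosome 6 (87980421 to 87981637). Of its 1217 exonic bases 564 are coding (188 codons), 281 are 5′ untranslated and 372 are the stop codon with the 3′ untranslated part. The submitters' processing notes name the build mm9, and the deposited table holds gene identifiers and no positions, so these coordinates describe the annotation and not the authors' counting. The 95 bases just before the annotated start are shown because the result is a level of transcript, and this is the sequence from which the annotation has it start. They come from RefSeq's promoter table (GRCm38.p6, minus strand, chr6:87981638-87981732), where H1fx is listed as H1f10, and capitals mark AATAAA, an AT-rich hexamer whose first base lies 31 bases before the start.
H1fx upstream: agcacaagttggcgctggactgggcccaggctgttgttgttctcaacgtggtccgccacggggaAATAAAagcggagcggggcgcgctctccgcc
RefSeq sets the start 155 bases further into the GENCODE exon, and its window of 300 bases (250 before and 50 after that start) holds these bases. The window is 77.7% G and C, against a median of 52.7% over 32851 such windows, and 97.9% of them have less. It holds 40 CpG dinucleotides, against a median of 7. Searched on both strands, AATAAA occurred once in the window, and 19.6% of all windows hold it. The TATA box hexamer TATAAA was not found there, and 13.6% of windows hold it. The CCAAT box was not found either, and 37.4% of windows hold it. The heptamer AAACACA, an element of the promoters of clustered linker histone genes, was also not found, and 7.2% of windows hold it. A GC box, GGGCGG, was found once, on the opposite strand, and 35.7% of windows hold it. These matches describe letters only.

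H1fx was at 0 normalized reads in PD replicate 1 and at 0 in PD replicate 2, and at 2395.1 in PC replicate 1 and 2400.6 in PC replicate 2. Normalized reads are reads divided by 1 size factor per library, recovered from the deposited log2 values. The reads themselves were 0 and 0 in PD and 2891 and 2018 in PC. H1fx was thus without a counted read in both libraries that lacked CID755673 and had many in both that had it. The groups did not overlap, which held for 1588 of the 1593 listed genes. The means were 0 ± 0 in PD and 2397.9 ± 3.9 in PC (SD, n = 2). Against a floor of 3 reads per library, which covers counting error only, the PC level was at least 848-fold higher. Had the PD libraries held H1fx at the PC level, 2473 and 2616 reads would have fallen on it. These are bulk samples, so fewer cells with the transcript and less of it per cell cannot be told apart. How the authors assigned reads to genes at this locus is not known, and its part in these values was not tested.

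**Figure D1:**
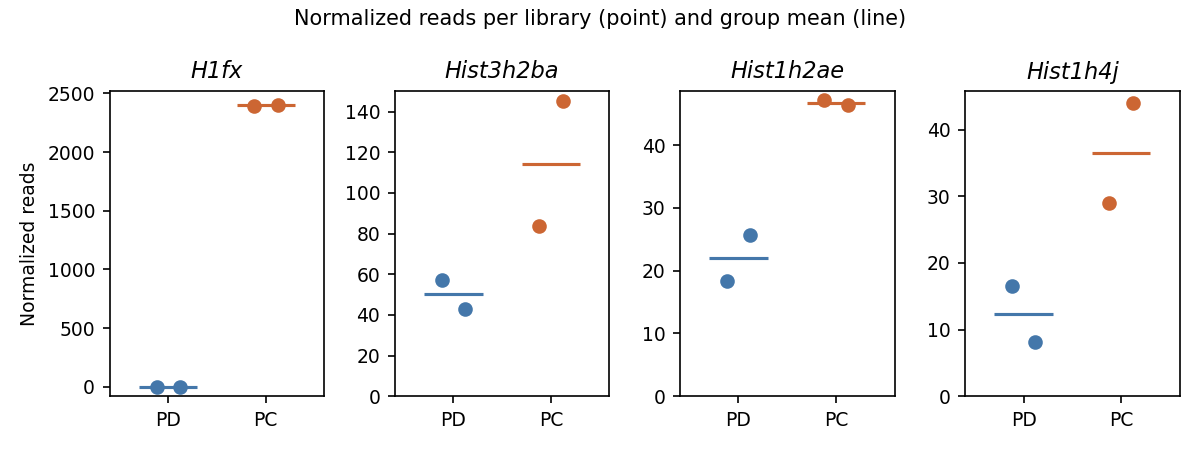
Normalized reads (linear axis) of H1fx and the 3 core histone genes of the table in each library, with PD in blue, PC in orange, a point per library and a line at the group mean. H1fx is at 0 in both PD libraries and near 2397.9 in both PC libraries, whereas each core histone gene has reads in all 4.

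The values that brought H1fx forward were its fold change and p. The authors' deposited table lists a log2 fold change of 11.23, a p of 5.4e-251 and a false discovery rate of 5.7e-247 for it. By that p it stood at rank 3 of the 1593 genes, and by its log2 difference at rank 1, with the next rise at 6.53. The table was itself selected, since no gene in it has a log2 fold change smaller than 1 in either direction or a p above 0.0498. Both PC values exceeded both PD values in 38.2% of the listed genes, and nothing is read from that order for H1fx.

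The 2 PC libraries differed by 0.0033 on the log2 scale for H1fx where counting error alone gives a standard error of 0.042 at these reads. For the 80 other listed genes within 1 log2 unit of H1fx in PC, the median difference between the PC libraries was 0.088, and 1 of the 80 had a smaller one. The PC values thus lay closer together than 1 counting error, so their SD of 3.9 understates the error of the level.

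By its level in PC, H1fx ranked 46 of 1593 listed genes, and per kb of annotated exon it ranked 14 of 1589 at 1970.3 normalized reads per kb, where the median listed gene had 17.59. It took 0.48% and 0.465% of the normalized reads on listed genes in PC replicates 1 and 2. Of the listed genes, 613 had higher values in PC, and 68 of them had a mean of at least 1000 normalized reads there. Among the other genes of those 68, the lowest PD level was that of Dnal1, an axonemal dynein light chain gene, at 176.5 normalized reads, with 1007.4 in PC and a ratio of means of 5.71. H1fx was therefore the 1 gene of that abundance with no read in PD. Among the 281 with a PC mean of at least 100, the lowest PD level after H1fx was that of Gm25951, with 1 read in each PD library. Its PC mean rests on 1 library, with 0.8 normalized reads (1 read) in PC replicate 1 and 423.5 (356 reads) in PC replicate 2, whereas H1fx was high in both. Gm26564, also of the 281, was close to this in PD, with 2 reads in replicate 1 and 0 in replicate 2. Like H1fx it had reads in both PC libraries (163 and 151), at a lower level. Dnal1 and Gm25951 were chosen after their values were seen.

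**Figure D2:**
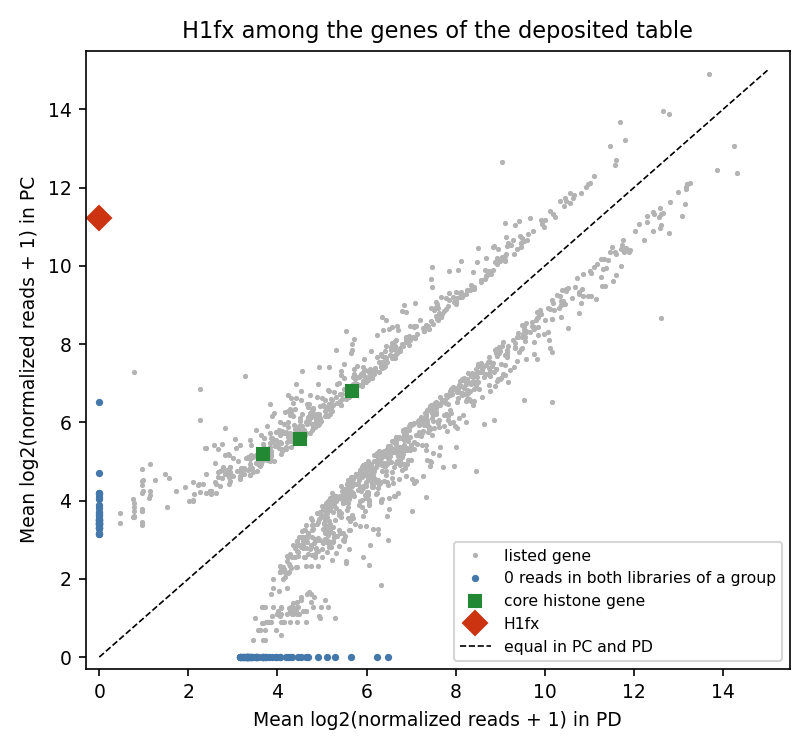
Mean log2(normalized reads + 1) of each of the 1593 listed genes in PD (x axis) and PC (y axis). H1fx (red diamond) lies on the y axis at 11.23, apart from the other genes at 0 in PD, which reach 6.53, and the empty band along the diagonal is the fold limit of the table.

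A level of 0 in both libraries of a group was seen in 34 listed genes for PD and in 60 for PC. The 34 genes at 0 in PD had a median of 10.9 normalized reads in PC and 32 of them had fewer than 50. H1fx had the highest level, and Gm6361, an annotated processed pseudogene, came next at 91.7 ± 6.6 (SD, n = 2). It was followed by the homeobox gene Hoxb3 (30.2 ± 24.1), the thioesterase family gene Them7 (19.1 ± 11.7) and the orphan receptor gene Gprc5d (17.7 ± 5.2). In the opposite direction the highest of the 60 genes at 0 in PC was the processed pseudogene Gm17208, at 88.5 normalized reads in PD, followed by Gm26883, Gm3317, Gm2174 and AC099934.3. Apart from H1fx, no gene at 0 in a group reached 100 normalized reads in the other.

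**Figure D3:**
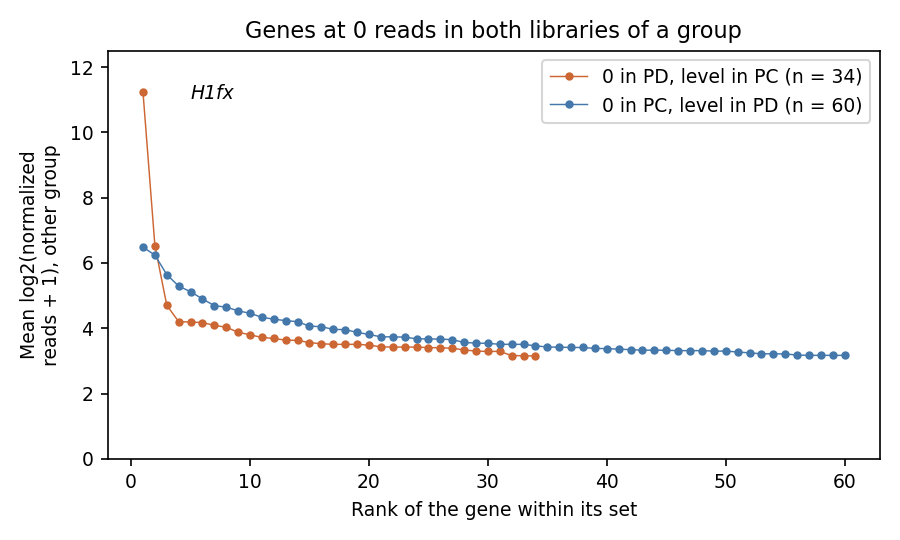
Genes with no read in either library of 1 group, ranked by their mean log2(normalized reads + 1) in the other group, with 34 genes at 0 in PD in orange and 60 at 0 in PC in blue. H1fx stands at 11.23 and the next gene of either set at 6.53.

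The locus is shared with other annotated genes. An exon of Gm5577, an antisense gene on the plus strand, covers 213 bases of the H1fx exon, all within its coding part, and Gm47286, an annotated miRNA gene on the same strand as H1fx, covers 24 bases at its 5′ end. The remaining 980 bases, 80.5% of the exon, overlap no other annotated exon. Another Gm5577 exon lies at -247 to -46 bases from the H1fx start, on the other strand, and covers 50 of the 95 bases printed above. Gm47286 runs from -104 to 23 bases from that start and covers all 95. Of the 1187 words of 31 bases in the H1fx transcript, 0% occurred in the same direction in a transcript of another gene. The 24 bases shared with Gm47286 are too short to hold such a word, so the 0% does not cover them. In the opposite direction 15.4% of the words occurred, all in Gm5577. Gm5577 and Gm47286 are not in the table and are not analysed here. No strand setting for the authors' counting is given in the sources used here, so reads of H1fx and of Gm5577 on the shared bases cannot be told apart. For the 24 bases shared with Gm47286, on the same strand, a strand setting would not separate the reads.

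Overlap with other exons was common in the table. Of the 1589 listed genes matched to GENCODE M21, 33.5% had an exonic base shared with another gene, and of those at 0 in PD 14 of 34 did (41.2%, H1fx among them), each with a gene on the opposite strand. For genes at 0 in PC the number was 17 of 60 (28.3%). Whether overlap plays a part in the level of H1fx was not tested.

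Within 100 kb of H1fx the annotation holds 10 other genes, of which 3 code for proteins: Copg1, a coat protein of transport vesicles, Hmces, which shields abasic sites in DNA, and Rab7, a GTPase of late endosomes. Of the 10, 0 were in the table, and they are not analysed here. The nearest listed genes were Efcc1, 224.5 kb away on the Hmces side, and 4933427D06Rik, 969.0 kb away on the other. Efcc1 was at 5.8 and 3.7 normalized reads in PD and at 11.6 and 27.4 in PC, and 4933427D06Rik at 29.1 and 48.6 in PD and at 22.4 and 8.3 in PC. Both were chosen after their values were seen, and both had few reads in every library beside the H1fx level in PC.

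The genes with the pattern most like that of H1fx were named by Euclidean distance over the deposited log2 values of the 4 libraries. None was near: the smallest distance was 5.79 log2 units, for Gm26564, and the tenth was 8.80. Gm26564 was at 1.9 and 0 normalized reads in PD and at 135.0 and 179.6 in PC. It is annotated as antisense, 2128 of its 2946 exonic bases overlap exons on the other strand, and 70.9% of its 31-base words occur in the opposite direction in other transcripts, those of Tspyl4 among them. Next came Gm6361, all of whose 31-base words also occur in other transcripts, the ubiquitin-conjugating enzyme variant gene Ube2v2 included, then Gm20537, the readthrough gene Xntrpc and Gm29050. B230303O12Rik, Neurl1b (a ubiquitin ligase gene), Atp6v0d2 (a proton pump subunit), Il4i1 (an amino acid oxidase) and Gm44167 made up the rest of the 10. Of the 10, 5 shared exonic bases with another gene, and 1, Gm6361, was at 0 in both PD libraries.

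Among other histone genes, 3 were in the table, each a replication-dependent core histone gene with higher values in PC and many times fewer reads than H1fx had there. Replication-dependent histone mRNAs carry no poly(A) tail, and how RNA was selected for the libraries was not examined. The gap in reads to H1fx is therefore not read as a difference in expression. Hist3h2ba, an H2B gene, was at 57.2 and 43.1 normalized reads in PD and at 83.7 and 145.1 in PC, a log2 difference of 1.13 (SE 0.35; Benjamini-Hochberg adjusted p = 0.5 from limma). Hist1h2ae, an H2A gene, was at 18.4 and 25.7 in PD and at 47.2 and 46.4 in PC (difference 1.07, SE 0.34; Benjamini-Hochberg adjusted p = 0.55 from limma). Hist1h4j, an H4 gene, was at 16.5 and 8.2 in PD and at 29.0 and 44.0 in PC (difference 1.53, SE 0.49; Benjamini-Hochberg adjusted p = 0.56 from limma). In each the PD and PC libraries did not overlap, which held for 1588 of the 1593 listed genes, and 0 of the 3 passed, where limma called 11.2% of the 1593 listed genes higher in PC. All 3 had an unadjusted p below the threshold of 0.05, as did 1541 of the 1593 listed genes, since the table was selected on p. The adjustment takes unlisted genes to have larger p-values, which can make the limma adjusted p-values too large and the share of calls too small. Of the 3, Hist3h2ba had a false discovery rate under the same threshold in the authors' deposited table (0.017), and 26.4% of all listed genes had such a rate with a higher value in PC. Of the 31-base words of these genes, 37.2%, 47.9% and 29.4% (Hist3h2ba, Hist1h2ae and Hist1h4j) occur in transcripts of other genes, histone genes among them. In the opposite direction 0.3%, 26.3% and 13.3% do, and 138 bases of Hist1h2ae overlap exons on the other strand. The single values of these genes are therefore uncertain.

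H1fx was the 1 listed gene of 11 linker histone genes, and the core histone genes were 3 of 63. Of 30 core histone variant genes, 9 genes of histone mRNA processing and 20 genes of linker histone chaperones and chromatin architecture proteins, 0 were listed, and they are not analysed here. A gene absent from the table may have changed by less than its fold limit, so the other linker histones cannot be set beside H1fx.

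The authors' deposited table gives H1fx the Gene Ontology terms for nucleosome, nucleosome assembly, chromatin organization, chromatin and nucleolus, among others. Under chromatin organization 7 genes were listed, 5 higher and 2 lower in PC. Under chromatin there were 20 genes, 7 higher and 13 lower, where 38.5% of all listed genes were higher. Nucleosome held 3 genes (3 higher), nucleosome assembly 4 (3 higher) and nucleolus 30 (12 higher). H1fx, picked for its difference, is counted as higher under each of these terms, so nothing is read from the counts. These terms were looked up after the values were seen. The lower genes under chromatin organization, Bend3 and Tspyl4, were both called by limma with Benjamini-Hochberg adjustment, which called 31.1% of listed genes. Bend3, a protein of heterochromatin, fell from 3114.2 ± 199.5 to 875.3 ± 95.5 normalized reads (SD, n = 2; limma, adjusted p = 0.012), and Tspyl4, of the nucleosome assembly protein family, from 578.9 ± 8.2 to 245.9 ± 17.3 (SD, n = 2; limma, adjusted p = 0.016). Neither stayed called without size factors (adjusted p from limma 0.24 for Bend3 and 0.32 for Tspyl4). Both stayed called under the other pseudocounts, the other filters and the replicate block. Neither stayed called when any 1 of the 4 libraries was left out, in fits with 1 residual degree of freedom. There the log2 difference was -1.94 to -1.72 for Bend3 and -1.31 to -1.16 for Tspyl4. Exons of Tspyl4 overlap those of Gm26564, which had higher values in PC, and without a known strand setting the reads of the pair cannot be told apart.

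The libraries held 433684 (PC replicate 2) to 683777 (PD replicate 2) reads on listed genes, and their full depth is unknown. Of 10 stem cell markers 3 were listed (Utf1, Dnmt3l and Lin28a), with a summed level of 23343.3 to 24382.3 normalized reads in PD and 7975.1 to 8211.1 in PC, and none at 0. Of markers of other cell types, those of extra-embryonic endoderm (2 of 6 listed) summed to 209.9 to 221.1 in PD and 466.4 to 511.5 in PC. Fibroblast (1 of 5), trophoblast (1 of 4), muscle (3 of 3) and endothelial (2 of 3) markers that were listed all had lower values in PC, and of 3 neural progenitor markers 0 were listed. Endothelial markers had the highest sums of these, 3342.5 to 3526.6 in PD and 1334.7 to 1498.7 in PC. A listed marker had passed the fold limit of the table, so each sum was over genes that had to differ. Unlisted markers are not analysed here, and no change of a cell type is read from the sums. The part of these shifts in the H1fx result was not tested.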

How the data were processed

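The deposited table has 1 row for each gene, a log2 column for each library, and p-values and false discovery rates from a test by the authors, per the file headers. Bowtie 0.12.2 and mm9 appear in the submitters' processing notes without a role. No source used here gives the counting tool, annotation, strand setting or test. With the log undone and 1 subtracted, 100.0% of values in each library were whole multiples of 1 step (tolerance 0.001 reads), which gave reads and size factors (1.0313, 1.0911, 1.207 and 0.8406 for PD 1, PD 2, PC 1 and PC 2). The number of genes tested was estimated from false discovery rates, p-values and ranks at the smallest listed p-values. The estimate was 31432 genes, on the assumption that no unlisted gene had a p-value smaller than those. limma 3.58.1 (R 4.3.3) was fitted to log2(normalized reads + 1) of all 1593 listed genes with a trended prior, a mean of at least 1 and no replicate block. Benjamini-Hochberg adjustment ran over the 31432 genes, with unlisted genes taken to have larger p-values. In the authors' own test this did not hold. There Hist3h2ba had a p of 0.0027 and a false discovery rate of 0.017, lower than a rank within the listed genes could give. Unlisted genes thus had smaller p-values in that test, so the limma adjusted p-values can be too large. Because only genes with small p-values were deposited, the estimated spread can be too small. The fit was tested on simulated data whose genes were not selected by p or fold, so that test does not cover the selection of the table. Alternatives were other pseudocounts (0.1 and 10), filters (none and a mean of 10), no size factors, a replicate block and leaving out each library. Exon overlap and shared 31-base words came from GENCODE M21, which held 1589 of the identifiers.

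Samples were grouped by their titles. Named genes were H1fx, listed histone genes, listed genes within 100 kb, the 10 nearest by Euclidean distance, and the 5 with the highest mean in each direction among genes at 0 in a group. A further gene under the ontology terms of H1fx is not reported here. The members and lists were chosen with earlier results of these data known.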

Additional observations from a re-analysis of the deposited data

How the results depend on the processing

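The log2 difference of H1fx rests on the pseudocount because PD was at 0. It was 11.23 with a pseudocount of 1, 14.55 with 0.1 and 7.91 with 10, and 11.24 without size factors. Leaving out each library in turn gave 11.226 to 11.23. Genes at 0 in both libraries of a group numbered 94, and 159 when up to 3 reads per library were allowed. With a library left out the number was 106 to 137. limma called 495 listed genes, 417 to 604 under the other pseudocounts and filters, and 64 without size factors. Leaving out either PD library left 61 calls and leaving out either PC library 33; such fits have 1 residual degree of freedom and give the single library the spread of the group with 2. Calls higher in PC, 179 of the 495, numbered 24 without size factors, 1 without either PD library, 33 without either PC library and 435 with the replicate block, so the share of 11.2% beside the core histone genes depends on each library. Whether same-numbered libraries of the 2 groups belong together is not stated in the labels. Their deviations from the group means had a correlation of -5.8e-05 across the 1593 genes. These genes were selected on p, so the correlation cannot settle whether the libraries are paired. A fit with the replicate block called 1176 genes and 1 of the 3 core histone genes, Hist3h2ba (limma with Benjamini-Hochberg adjustment, adjusted p = 0.017). Under every other alternative run, 0 of the 3 were called (0 to 0 with a library left out), and each kept its direction. The core histone genes had 9 to 122 reads per library, and the full depth is unknown.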
